A study of Homo sapiens with 18 samples.

Results

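ETV1, ETV4 and ETV5 are the 3 members of the PEA3 subfamily of ETS transcription factors, out of 58735 genes counted. They were taken by gene symbol from both count tables. RNA was sequenced from 18 libraries of human lung adenocarcinoma cell lines, in 6 groups of 3. A549 and H358 cells received, by lentivirus, either a short hairpin RNA against RAD21 (A549_shRAD21 and H358_shRAD21) or a control vector (A549_shNC and H358_shNC), and these 12 libraries carry the batch label April. A549 cells that overexpress RAD21 (A549_RAD21OE) and A549 cells with the empty vector (A549_EV) make up the 6 libraries labelled July. The labels give the genotype of all control groups as wild type. RAD21 is a core subunit of cohesin, the ring complex that extrudes chromatin loops and pairs sister chromatids. The number of hairpins, whether the lines with a vector were clones or pools, and whether replicates came from separate cultures are not given in the sources used here, so p-values measure only the spread between libraries.

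ETS factors bind DNA through a conserved domain that reads a GGAA core. The PEA3 members are activators at the end of receptor tyrosine kinase, RAS and ERK signalling, and in the developing lung Etv4 and Etv5 act downstream of FGF signals in the growing epithelial buds. Their transcription is held back by the repressor capicua (CIC), which ERK signalling inactivates, and their proteins are marked for degradation by the ubiquitin ligase that contains COP1 and DET1.

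The 3 genes lie on different chromosomes, all on the minus strand of the hg38 build as the files give them. ETV1 (ENSG00000006468) spans chr7:13891228-13991425 with 9616 bases of exon, ETV4 (ENSG00000175832) spans chr17:43527844-43579620 with 3607 bases, and ETV5 (ENSG00000244405) spans chr3:186046308-186110318 with 5802 bases. Their transcripts differ in base composition: the GC content was 40.1% for ETV1, 60.3% for ETV4 and 50.2% for ETV5, which are the 11.5th, 86.5th and 54.3rd percentiles of the genes tested in the knockdown. Reads could be assigned to each gene with little ambiguity. Of the exon bases of ETV4, 1.89% overlapped DHX8 on the opposite strand, 2.83% of those of ETV5 overlapped DGKG on the same strand, and none of ETV1 overlapped another gene. Stretches of 50 bases shared with transcripts of another gene made up 0.609% of those in ETV4, 1.96% in ETV5 and 0% in ETV1, so the 3 relatives shared none with each other.

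Promoter windows from RefSeq (build GRCh38.p14, 250 bases before to 50 bases after a start site) were matched by symbol for 1 of the 3 genes, ETV1, with 6 windows. They were searched on both strands for the ETS site CCGGAAGT and for the capicua sites TGAATGAA and TGAATGGA, which cannot overlap one another at the same position. The window at the most upstream start site, base 13991425, is shown because it alone among the 6 held a match, a TGAATGGA that begins 125 bases before the start site and is in capitals here. The window is chr7:13991376-13991675 on the minus strand, written 5′ to 3′.
ETV1 promoter window: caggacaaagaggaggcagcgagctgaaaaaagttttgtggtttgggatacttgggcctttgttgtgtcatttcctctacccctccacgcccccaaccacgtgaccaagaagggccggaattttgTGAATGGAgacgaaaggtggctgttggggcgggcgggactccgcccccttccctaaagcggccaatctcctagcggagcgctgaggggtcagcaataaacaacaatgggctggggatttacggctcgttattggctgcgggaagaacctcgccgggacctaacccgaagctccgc
None of the 6 windows held CCGGAAGT. Of all 35116 promoter windows of this length, 1.03% held TGAATGGA, 1.65% TGAATGAA and 4.14% CCGGAAGT. A match of this kind describes the letters and is not evidence of binding.

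RAD21 itself fell to 47.4% of its control in A549_shRAD21 (log2 fold change -1.08, SE 0.08, adjusted p = 2.99e-08) and to 70.3% in H358_shRAD21 (-0.51, SE 0.08, adjusted p = 0.000671), and rose 7.23-fold in A549_RAD21OE (2.85, SE 0.08, adjusted p = 2.9e-10). The knockdown libraries held 15155077 to 19277568 counts and the overexpression libraries 13024640 to 14276335, which gave between 105 and 1649 counts for each of the 3 ETV genes in each library. In 2 groups, replicate 3 stood apart: its median absolute log2 difference from the other replicates was 0.313 and 0.304 in A549_shRAD21 and 0.269 and 0.231 in A549_RAD21OE, against 0.106 to 0.146 for the other pairs of replicates. Relative levels also moved with GC content in these comparisons (Spearman rho across genes -0.331 for the log2 fold change of A549 knockdown, 0.184 for H358 knockdown and 0.31 for overexpression), and values with GC and exon length corrected are given where they change a result. Both lines expressed the epithelial keratins KRT8 (1493 to 8890 CPM) and KRT18 (533.2 to 4931 CPM). EPCAM (2.84 to 12.17 CPM in A549, 470.1 to 559.4 in H358) and KRT19 (7.76 to 36.53 and 1249 to 1553 CPM) were low in A549, the lung factor NKX2-1 was at 113.8 to 162.6 CPM in H358 and at most 0.734 CPM in A549, and SFTPB and SFTPC were at or below 0.317 CPM in both. Of 6 markers of blood, endothelium and fibroblasts the sum was 15.61 to 30.13 CPM in A549 and 38.87 to 44.17 CPM in H358, nearly all of it COL1A1, with CD3E at 0 in all A549 libraries and DCN at 0 in all H358 libraries. Some markers changed in these comparisons, not all in the direction of RAD21. In A549 knockdown EPCAM (log2 fold change 1.55), CDH1 (1.13), KRT8 (0.67), KRT18 (0.84), KRT19 (0.77) and NKX2-1 (2.94, from near 0) were called higher and KRT7 (-0.80) lower. In H358 knockdown CDH1 (0.25) and NKX2-1 (0.35) were called higher and the endothelial PECAM1 (-1.21) lower. With overexpression KRT8 (0.49) and KRT18 (0.54) were called higher, and CDH1 (-0.36) and COL1A1 (-0.44) lower. The part of these changes in the results was not tested.

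The control cells of the lines used the 3 genes in different proportions. Levels are given as CPM, counts divided by a library size that was adjusted by the trimmed mean of M-values (TMM), and between genes as CPM per kb of exon. ETV1 stood at 6.89, 7.03 and 8.29 CPM in A549_shNC and at 39.02, 45.58 and 47.39 CPM in H358_shNC. It was 5.95-fold higher in H358 (log2 fold change 2.57, SE 0.14, adjusted p = 4.18e-12). ETV4 went the other way, with 77.47, 85.38 and 78.51 CPM in A549_shNC against 53.85, 51.67 and 47.75 in H358_shNC (-0.65, SE 0.09, adjusted p = 2.87e-06). ETV5 was 1.38-fold higher in H358, at 77.33, 79.04 and 68.28 CPM against 55.63, 52.39 and 55.27 (0.46, SE 0.08, adjusted p = 2.33e-05). No range of the A549 controls overlapped that of the H358 controls for any of the 3 genes. Differences between these lines were common, since 76.0% of the 18939 genes tested were called at an adjusted p under 0.05. With library totals alone as the scaling the median gene was 0.268 higher in H358 on the log2 scale (0.048 with TMM), and the 3 differences kept their directions.

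Per kb of exon and with TMM scaling, the sum of the 3 genes was nearly the same in both lines. It was 32.5 ± 0.865 CPM per kb in A549_shNC and 31.6 ± 1.49 in H358_shNC (SD, n = 3), with overlapping ranges of 31.8 to 33.4 and 29.9 to 32.7. This likeness depends on the unit and the scaling. In CPM, ETV1, ETV4 and ETV5 had means of 7.40, 80.45 and 54.43 in A549_shNC and 44.00, 51.09 and 74.88 in H358_shNC, a larger sum in H358. With library totals alone, the log2 differences (H358 over A549) were 2.79, -0.43 and 0.68, each shifted towards H358. ETV4 made up 68.7% ± 1.83 of the sum in A549_shNC and 44.7% ± 1.27 in H358_shNC. ETV1 made up 2.37% ± 0.268 and 14.5% ± 1.95, and ETV5 the remaining 28.9% ± 1.69 and 40.7% ± 1.26. In A549_EV, in the other batch, the sum was 31.6 ± 1.54 CPM per kb, with 61.1% ± 2.98 from ETV4.

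**Figure D1:**
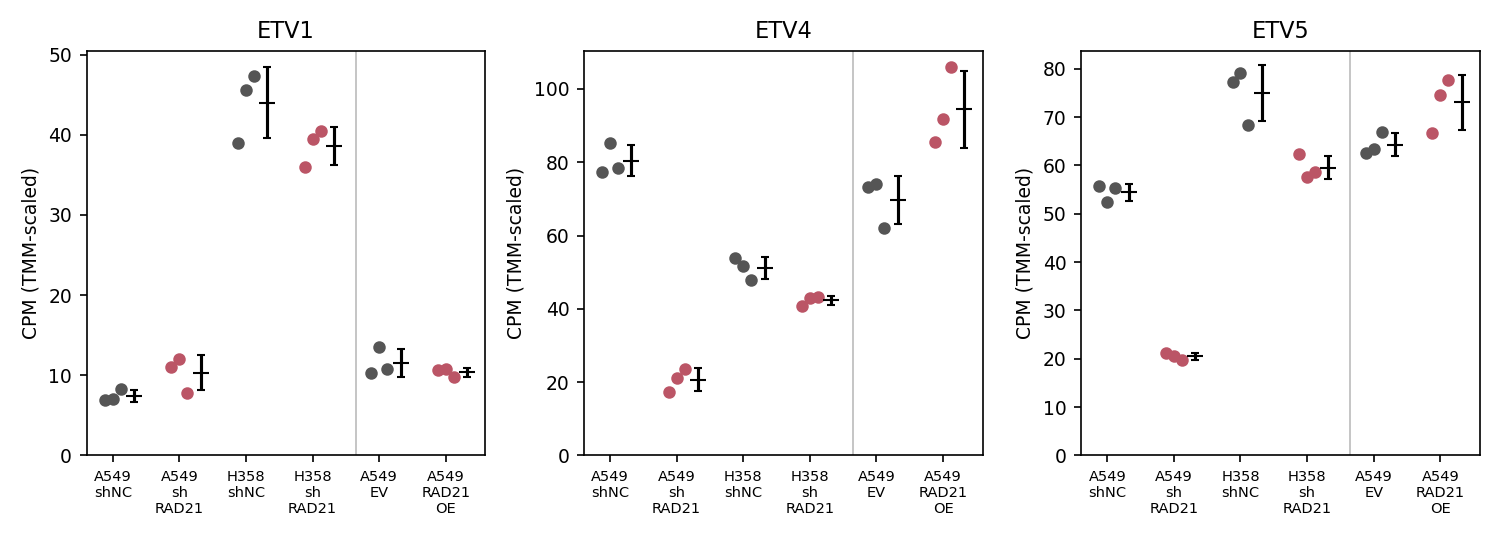
CPM (vertical axes, from 0) of ETV1, ETV4 and ETV5 in each of the 18 libraries. Grey points are control libraries, red points libraries with RAD21 knocked down or overexpressed, black marks the mean ± SD of 3, and the grey line separates the batches. ETV4 and ETV5 sit at 17.43 to 23.51 and 19.63 to 21.10 CPM in A549_shRAD21, below all other groups, while ETV1 is highest in the H358 groups.

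Knockdown of RAD21 in A549 lowered ETV4 and ETV5 strongly, while ETV1, the least abundant of the 3 in this line, was higher on average. ETV4 stood at 77.47, 85.38 and 78.51 CPM in A549_shNC and at 17.43, 21.08 and 23.51 CPM in A549_shRAD21. All 3 knockdown libraries were far below all 3 controls. ETV4 was left with 25.7% of its control level (log2 fold change -1.96, 95% interval -2.17 to -1.76, adjusted p = 1.26e-10). In these bulk libraries, fewer cells that express a gene and less RNA in each cell cannot be told apart.

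ETV5 stood at 55.63, 52.39 and 55.27 CPM in A549_shNC and at 21.10, 20.64 and 19.63 CPM in A549_shRAD21. The groups did not overlap, and the knockdown libraries lay close together. ETV5 was left with 37.6% of its control level (log2 fold change -1.41, 95% interval -1.58 to -1.24, adjusted p = 7.58e-10). Genes called lower made up 10.9% of the 18939 tested and genes called higher 14.4%. In the order of all log2 fold changes from the lowest, ETV4 was the 389th gene and ETV5 the 615th. Both falls were called in all 15 alternative analyses, with log2 fold changes of -2.06 to -1.72 for ETV4 and -1.46 to -1.38 for ETV5.

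ETV1 stood at 6.89, 7.03 and 8.29 CPM in A549_shNC and at 11.07, 12.06 and 7.84 CPM in A549_shRAD21. Knockdown replicates 1 and 2 were above all controls, and replicate 3 fell inside the range of the controls. The fit called ETV1 higher (log2 fold change 0.49, 95% interval 0.17 to 0.80, adjusted p = 0.0237), but the call did not hold in 7 of 15 alternatives (adjusted p 5.57e-05 to 0.131 over all 15). With GC content and exon length corrected the log2 fold change was 0.28 (adjusted p = 0.0706). The call was also lost without A549_shNC replicate 1 (0.43, adjusted p = 0.0984) or 2 (0.45, 0.0868) and without A549_shRAD21 replicate 1 (0.43, 0.0861) or 2 (0.37, 0.131), and was 0.65 without replicate 3 (5.57e-05). Replicates 1 and 2 of A549_shRAD21 were also those in which levels fell with GC content (Spearman rho across genes -0.467 and -0.441, against 0.362 in replicate 3), and the part of this in the ETV1 difference was not tested.

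Knockdown in H358 left all 3 genes lower on average, by far less than in A549 for ETV4 and ETV5. ETV5 stood at 77.33, 79.04 and 68.28 CPM in H358_shNC and at 62.26, 57.66 and 58.71 CPM in H358_shRAD21. The groups did not overlap. ETV5 fell to 79.5% of its control (log2 fold change -0.33, 95% interval -0.49 to -0.17, adjusted p = 0.00997), where 4.62% of genes were called lower and 3.78% higher. With 1 library left out the log2 fold change was -0.40 to -0.29. The call was lost without H358_shNC replicate 1 (-0.30, adjusted p = 0.0596) or 2 (-0.29, 0.0703). It was also lost without H358_shRAD21 replicate 2 (-0.31, 0.0677) or 3 (-0.32, 0.0574). Over 15 alternatives the adjusted p ranged from 7.65e-05, in the fit of the H358 libraries alone, to 0.0703. With 1 library left out, 408 to 496 of all genes were called lower, against 875 with all libraries.

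ETV4 stood at 53.85, 51.67 and 47.75 CPM in H358_shNC and at 40.90, 42.87 and 43.17 CPM in H358_shRAD21. The groups did not overlap, but the difference did not pass the threshold (log2 fold change -0.27, 95% interval -0.47 to -0.08, adjusted p = 0.0765). It passed in 3 of 15 alternatives: DESeq2's Wald test (adjusted p = 0.0415), the fit with GC content and exon length corrected (0.000293) and the fit of the H358 libraries alone (0.00157), within a range of 0.000293 to 0.268. ETV1 stood at 39.02, 45.58 and 47.39 CPM in H358_shNC and at 35.96, 39.52 and 40.48 CPM in H358_shRAD21. Its groups overlapped and it did not pass (-0.19, 95% interval -0.43 to 0.06, adjusted p = 0.367).

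The effects of knockdown differed between the lines for all 3 genes when the difference itself was tested (effect in H358 minus effect in A549), a call that 17.6% of genes shared. The difference was 1.69 on the log2 scale for ETV4 (SE 0.13, adjusted p = 1.05e-07) and 1.08 for ETV5 (SE 0.11, adjusted p = 2.72e-06), both called in all 20 alternatives. For ETV1 it was -0.67 (SE 0.19, adjusted p = 0.0209). The ETV1 difference was -0.35 with GC content and exon length corrected (adjusted p = 0.0693) and lost its call without any 1 of 7 of the 12 libraries, at adjusted p from 0.0514 to 0.0691. RAD21 was also lowered less in H358, with a difference of 0.57 (SE 0.12, adjusted p = 0.00228), so the extent of knockdown and the line cannot be told apart. Within A549_shRAD21 the log2 level of RAD21 relative to the control mean was -0.98, -0.95 and -1.33 in replicates 1, 2 and 3. In the same order it was -2.20, -1.92 and -1.77 for ETV4, -1.36, -1.39 and -1.47 for ETV5, and 0.58, 0.70 and 0.09 for ETV1. The library with the least RAD21 thus had the smallest rise of ETV1.

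**Figure D2:**
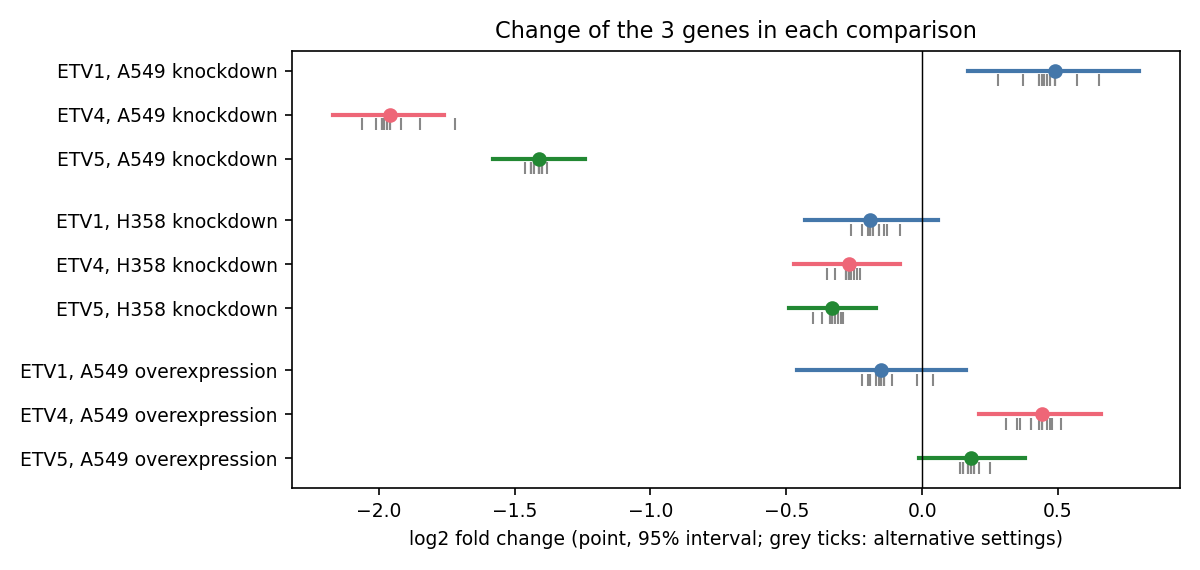
Log2 fold changes (horizontal axis) of the 3 genes in the 3 comparisons, as points with 95% intervals, and under the alternative analyses as grey ticks. The intervals of ETV4 and ETV5 in A549 knockdown lie below -1.2, while ETV1 spreads from 0.28 to 0.65 over its alternatives.

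Overexpression of RAD21 in A549 raised ETV4 while ETV5 and ETV1 did not pass the test. ETV4 stood at 73.12, 74.00 and 62.14 CPM in A549_EV and at 85.41, 91.80 and 106.0 CPM in A549_RAD21OE. All 3 overexpression libraries were above all 3 controls, a 1.35-fold rise (log2 fold change 0.44, 95% interval 0.21 to 0.66, adjusted p = 0.0079), where 14.1% of 15462 genes were called higher and 13.7% lower. The call was lost without A549_EV replicate 3, the lowest control (0.36, adjusted p = 0.0546, within 0.000193 to 0.0546 over 14 alternatives), and the value was 0.35 without A549_RAD21OE replicate 3, the highest library and the one that stood apart. ETV5 stood at 62.59, 63.31 and 66.99 CPM in A549_EV and at 66.76, 74.56 and 77.72 CPM in A549_RAD21OE. Its lowest overexpression library lay just below the highest control (0.18, 95% interval -0.01 to 0.38, adjusted p = 0.146). ETV1 stood at 10.31, 13.57 and 10.72 CPM in A549_EV and at 10.60, 10.79 and 9.75 CPM in A549_RAD21OE, with overlapping groups (-0.15, 95% interval -0.46 to 0.16, adjusted p = 0.464), and with GC content and exon length corrected its value was 0.04.

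The order of the groups differed between the 3 genes. ETV1 was lowest in the A549 groups, at group means of 7.40 to 11.53 CPM, and highest in H358_shRAD21 (38.65 ± 2.38 CPM) and H358_shNC (44.00 ± 4.40 CPM), whose ranges overlapped. For ETV4 the order of the knockdown batch was A549_shRAD21 (20.68 ± 3.06 CPM), H358_shRAD21 (42.31 ± 1.24), H358_shNC (51.09 ± 3.09) and A549_shNC (80.45 ± 4.30), with no overlap between neighbours. For ETV5 it was A549_shRAD21 (20.46 ± 0.753 CPM), A549_shNC (54.43 ± 1.77), H358_shRAD21 (59.54 ± 2.41) and H358_shNC (74.88 ± 5.78), again with no overlap. ETV4 therefore ranked A549_shNC first and ETV5 ranked H358_shNC first, while A549_shRAD21 was last for both.

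The summed level of the 3 genes fell to 10.3 ± 0.616 CPM per kb in A549_shRAD21 from 32.5 ± 0.865 in A549_shNC, and to 26.0 ± 0.254 in H358_shRAD21 from 31.6 ± 1.49 in H358_shNC. It was 39.8 ± 3.77 in A549_RAD21OE against 31.6 ± 1.54 in A549_EV. The ranges did not overlap in any of these comparisons. The makeup of the sum changed in A549 as well. ETV4 went from 68.7% ± 1.83 in A549_shNC to 55.3% ± 5.31 in A549_shRAD21, ETV1 from 2.37% ± 0.268 to 10.4% ± 2.46 and ETV5 from 28.9% ± 1.69 to 34.2% ± 3.21. The libraries did not overlap for any of the 3. A share also rises when the sum falls. The level of ETV1 itself was 0.77 ± 0.0802 CPM per kb in A549_shNC and 1.07 ± 0.23 in A549_shRAD21, a rise whose call was lost in 7 of 15 alternatives. In H358 the shares of ETV1, ETV4 and ETV5 were 14.5%, 44.7% and 40.7% in the controls and 15.4%, 45.1% and 39.5% after knockdown, and the libraries overlapped for each gene.

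**Figure D3:**
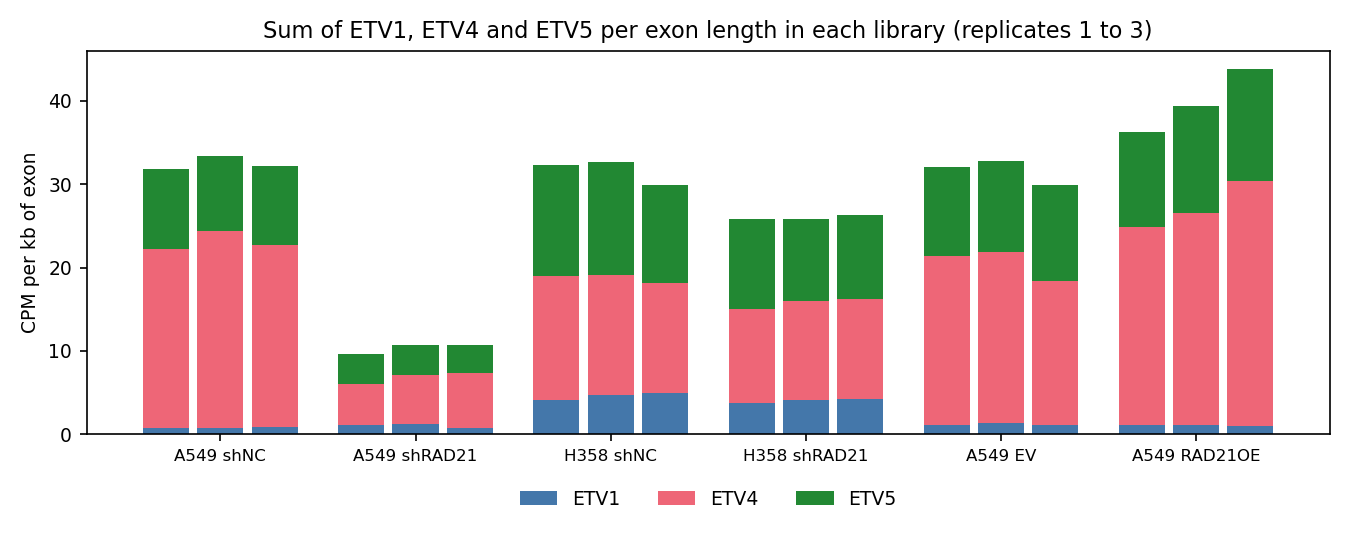
Stacked bars give the CPM per kb of exon of ETV1 (blue), ETV4 (red) and ETV5 (green) in each library, with replicates 1 to 3 of a group side by side and the axis from 0. The A549_shRAD21 bars reach 9.62 to 10.7 CPM per kb and the bars of the other knockdown-batch groups 25.8 to 33.4.

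Ratios of one gene to another within a library do not depend on the scaling between libraries, but a trend with GC content or length within a library still acts on them. The log2 ratio of ETV4 to ETV5 counts was 0.48, 0.70 and 0.51 in A549_shNC and -0.28, 0.03 and 0.26 in A549_shRAD21. It was lower by 0.56 after knockdown, and the groups did not overlap. With GC content and exon length corrected, the log2 fold changes were -1.72 for ETV4 and -1.40 for ETV5. In A549_RAD21OE the same ratio was 0.36, 0.30 and 0.45 against 0.22, 0.22 and -0.11 in A549_EV, a difference of 0.25, again without overlap. The ETV4 to ETV1 ratio differed by -2.43 and the ETV5 to ETV1 ratio by -1.87 in A549 knockdown, and by 0.58 and 0.32 with overexpression. With GC content and exon length corrected, the overexpression log2 fold changes were 0.31 for ETV4, 0.15 for ETV5 and 0.04 for ETV1, which lie closer together. In H358 all 3 ratios overlapped between groups, with differences of 0.06, -0.09 and -0.14. An exact two-sided permutation test of 3 libraries against 3 cannot go below p = 0.1, which all 6 ratios in A549 reached (0.15 adjusted over 9 tests), and gave 0.4, 0.8 and 0.6 in H358 (0.514, 0.8 and 0.675 adjusted).

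Of 25 other ETS factors, 17 were tested in the knockdown, and in A549 they moved both ways. There 6 rose and 4 fell, against 14.4% and 10.9% of all genes, with a median log2 fold change of 0.23 against 0.00 for all genes. ETS2 rose from 57.91 ± 4.61 to 156.2 ± 3.10 CPM (1.43, SE 0.07, adjusted p = 1.29e-10), and the epithelial factors EHF (2.27, SE 0.17) and SPDEF (1.45, SE 0.23) rose from low levels of 1.98 and 3.88 CPM. ELK3, which acts in ERK signalling as a ternary complex factor (-0.96, SE 0.10), ETS1 (-0.77, SE 0.07) and the repressor ERF, itself a target of ERK (-0.61, SE 0.15), fell. None of the 17 fell as far as ETV4 or ETV5: ELK3 was the lowest, at -0.96 against -1.41 for ETV5. The rise of ETS2 was close in size to the fall of ETV5.

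In H358 no other ETS factor was called higher by edgeR (1 at an unadjusted p under 0.05, 0 by DESeq2) and ELF3 was called lower (-0.35, SE 0.07, adjusted p = 0.00515, but 0.0539 without H358_shRAD21 replicate 2), so ETV5 and ELF3 were the ETS genes called there. Over all genes 3.78% were called higher and 4.62% lower in H358. With overexpression 1 of 16 rose and 5 fell, against 14.1% and 13.7% of all genes, with a median of -0.10. ELK3 fell from 99.07 ± 6.47 to 67.61 ± 10.5 CPM (-0.55, SE 0.11, adjusted p = 0.00313), so it was lower after both knockdown and overexpression in A549. The number called lower with overexpression was 2, 1 and 1 without A549_EV replicates 1, 2 and 3, and 3 and 1 without A549_RAD21OE replicates 1 and 2. In the same order, all genes called lower numbered 1235, 1065, 1369, 2456 and 1432, against 2120 with all libraries. The rise of ETS1 (0.33, adjusted p = 0.0412) was lost in 6 alternatives.

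**Figure D4:**
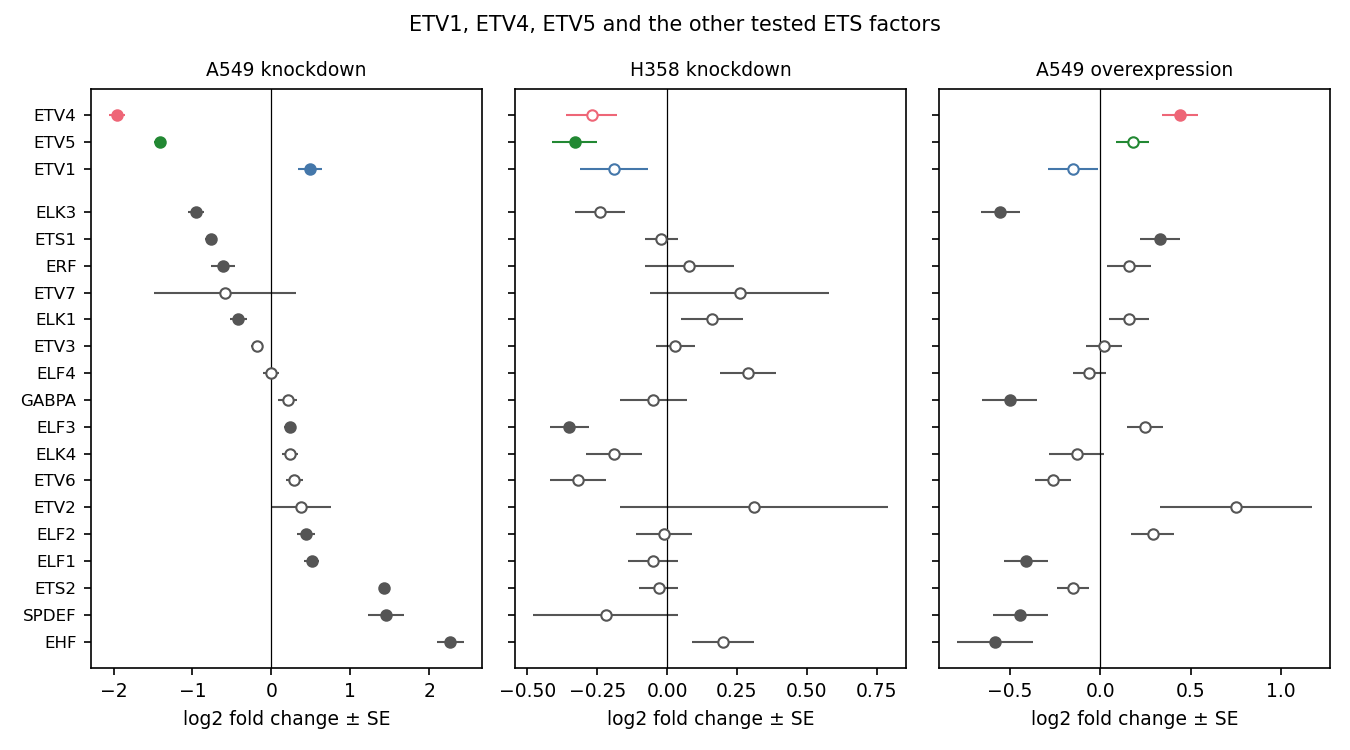
Log2 fold change ± SE of ETV4, ETV5 and ETV1 (coloured, top) and of the other ETS factors tested (grey) in the 3 comparisons. Filled points passed an adjusted p of 0.05, and the horizontal axes differ between panels. In A549 knockdown ETV4 and ETV5 lie left of all other factors.

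The regulators of PEA3 factors were 15 genes. In A549 knockdown 3 rose and 0 fell by edgeR (0 at an unadjusted p under 0.05, 0 by DESeq2), against 14.4% and 10.9% of all genes, with a median of 0.05. In H358 0 were called in either direction (1 higher and 1 lower at an unadjusted p under 0.05, 1 and 0 by DESeq2), against 3.78% higher and 4.62% lower of all genes. The number that rose in A549 was 1 without A549_shNC replicate 2 or A549_shRAD21 replicate 1, and 6 without A549_shRAD21 replicate 3. In the same order, all genes called higher numbered 2031, 2003 and 4537, against 2721 with all libraries. CIC, the repressor, stood at 235.1 ± 2.44 CPM in A549_shNC and 213.9 ± 32.8 in A549_shRAD21 (-0.14, SE 0.08, adjusted p = 0.26). Its log2 fold change there was 0.11 with GC content and exon length corrected, and it was called lower without A549_shRAD21 replicate 3 (-0.27, adjusted p = 1.17e-05). In H358 CIC stood at 146.5 ± 7.49 and 143.8 ± 6.25 CPM in controls and knockdown (-0.03, SE 0.08). With overexpression CIC rose from 207.5 ± 5.21 to 277.8 ± 37.5 CPM (0.42, SE 0.09, adjusted p = 0.00548), in the comparison in which ETV4 also rose.

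The cofactors of CIC did not pass edgeR's test in any comparison, but some alternatives called them. ATXN1 had log2 fold changes of 0.31, -0.24 and -0.27 in A549 knockdown, H358 knockdown and overexpression (adjusted p 0.0536, 0.151 and 0.0826), and ATXN1L -0.11, 0.02 and 0.23. ATXN1 passed in 3 of 15 alternatives in A549 knockdown (lowest adjusted p 0.000502, without A549_shRAD21 replicate 3), in 1 of 15 in H358 (0.000756, in the fit of that line alone) and in 3 of 14 with overexpression (0.0213, without A549_RAD21OE replicate 3). ATXN1L passed in 1 of 15 in A549 knockdown (0.00888, without A549_shRAD21 replicate 3) and in 3 of 14 with overexpression (0.0157, with GC content and exon length corrected). COP1, the ligase that marks PEA3 proteins, rose slightly in A549 knockdown (0.28, SE 0.10, adjusted p = 0.046), a call lost in 10 alternatives with adjusted p up to 0.212. The log2 fold change of COP1 was 0.00 in H358 and 0.08 with overexpression, neither of which passed. DET1, which shares 36.0% of its exon bases with an overlapping gene, was at group means of 1.08 to 3.07 CPM and did not pass. Levels of protein, phosphorylation and capicua binding were not measured by this assay.

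Transcripts that rise with ERK activity mostly fell in A549 knockdown, as ETV4 and ETV5 did. Of 16 such genes, all tested, 11 fell and 1 rose, against 10.9% and 14.4% of all genes, with a median of -0.51, and the number that fell was 9 to 12 over the alternatives. PHLDA1 (-1.41, SE 0.07) fell as far as ETV5, and the phosphatase gene DUSP6 from 8.90 ± 0.324 to 3.78 ± 0.304 CPM (-1.23, SE 0.11), although 40.5% of the exon bases of DUSP6 and 16.5% of those of PHLDA1 overlap a gene on the opposite strand and no source states whether counting used strand. In H358 4 of the 16 fell, namely DUSP4, DUSP5, DUSP6 and PHLDA1, and 0 rose, with a list median of -0.17. Over all genes there 4.62% fell and 3.78% rose. DUSP6 was at 67.31 ± 1.98 CPM in H358_shNC.

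With overexpression 5 of the 16 rose and 0 fell by edgeR (3 lower at an unadjusted p under 0.05, 0 by DESeq2). Over all genes 14.1% rose and 13.7% fell, and the list median was 0.13 against -0.01. ETV4 also rose. DUSP5, a nuclear phosphatase for ERK, followed RAD21 in all 3 comparisons, from 184.7 ± 8.50 to 138.0 ± 7.44 CPM in A549 knockdown (-0.42, SE 0.07), from 46.00 ± 2.00 to 27.90 ± 1.39 CPM in H358 knockdown (-0.72, SE 0.08) and from 54.55 ± 4.84 to 102.8 ± 10.1 CPM with overexpression (0.91, SE 0.10). The AP-1 gene FOSL1 rose with overexpression from 29.58 ± 8.08 to 75.03 ± 7.44 CPM (1.34, SE 0.16, adjusted p = 8.97e-05). It did not pass in either knockdown (-0.34 and 0.06). EPHA2 rose with overexpression (0.57, SE 0.09) and fell after A549 knockdown (-0.31, SE 0.10, adjusted p = 0.0373).

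Genes reported as PEA3 targets in other systems went both ways. Of 15 tested in A549 knockdown 5 fell and 3 rose, against 10.9% and 14.4% of all genes, with a median of -0.25. The matrix metalloproteinase genes MMP2 (6.66 ± 1.39 to 1.70 ± 0.219 CPM, -1.96, SE 0.28) and MMP14 (-0.75, SE 0.18) fell beside ETV4, while SPP1 rose (1.09, SE 0.09). MMP2 also fell with overexpression, from 20.46 ± 1.02 to 6.37 ± 0.694 CPM (-1.68, SE 0.13, adjusted p = 3.81e-06), while ETV4 rose, and MMP14 rose (0.83, SE 0.19, adjusted p = 0.00674). In H358 4 of 15 fell and 1 rose, against 4.62% and 3.78%. SPP1 fell there from 114.4 ± 10.1 to 28.77 ± 2.63 CPM (-1.99, SE 0.09, adjusted p = 8.12e-10), and so did PLAU, the urokinase gene, from 328.8 ± 13.2 to 240.6 ± 15.4 CPM (-0.45, SE 0.07), with 31.1% of its exon bases overlapping a gene on the opposite strand. With overexpression 2 of 11 rose and 3 fell, against 14.1% and 13.7%, with a median of -0.17. The 3 that fell became 1 without A549_EV replicate 3 or A549_RAD21OE replicate 2 and 5 without A549_RAD21OE replicate 3. In the same order, all genes called lower numbered 1369, 1432 and 2688, against 2120 with all libraries. The 3 that rose in A549 knockdown became 1 without any single A549_shNC library. All genes called higher numbered 2031 to 2151 in those settings, against 2721.

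Ligands and receptors of the FGF pathway, which lies upstream of ETV4 and ETV5 in lung epithelium, went both ways. Of 9 tested in A549 knockdown 5 rose and 1 fell, against 14.4% and 10.9% of all genes (median 0.27), though only 2 or 3 rose without A549_shNC replicate 1 or 3 or A549_shRAD21 replicate 1 or 2. In those settings 2003 to 2151 of all genes were called higher, against 2721 with all libraries. The receptor gene FGFR1 was the one that fell, from 522.0 ± 13.3 to 376.9 ± 50.9 CPM (-0.47, SE 0.11, adjusted p = 0.00471), and it rose with overexpression from 215.0 ± 4.56 to 334.9 ± 30.1 CPM (0.64, SE 0.08, adjusted p = 0.000149), the same directions as ETV4. In H358 FGFR1 was at 4.98 ± 0.513 CPM in the controls and 6.85 ± 2.13 after knockdown. It did not pass there (0.45, SE 0.18, adjusted p = 0.15), and its sign was opposite to that of ETV4 (-0.27). FGFR3 rose after knockdown in both lines (0.78, SE 0.11 in A549; 1.30, SE 0.13 in H358). It also rose with overexpression (0.44, SE 0.12, adjusted p = 0.0185), a call lost without A549_EV replicate 2 or 3 (0.41 each, adjusted p up to 0.083). In H358 2 of 9 rose and 1 fell (median 0.36), against 3.78% and 4.62%, and with overexpression 3 of 7 rose and 1 fell (median 0.18), against 14.1% and 13.7%. The 2 that rose in H358 became 1 without any 1 of 5 libraries, and the 3 that rose with overexpression became 1 without A549_EV replicate 2. With 1 library left out in H358, 347 to 386 of all genes were called higher, against 716. Without A549_EV replicate 2 the number called higher with overexpression was 1112, against 2177.

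Genes around the members were counted by their distance. Within 500000 bases of ETV4 lay 61 genes, of which 22 were tested in the knockdown. In A549 0 of these rose by edgeR (1 at an unadjusted p under 0.05, 0 by DESeq2) and 1 fell, with a median of 0.06, against 14.4% of all genes called higher and 10.9% called lower. The one that fell was HDAC5, 497126 bases away (-0.56, SE 0.11, adjusted p = 0.000648). DHX8, whose span on the opposite strand contains that of ETV4, is among the 21 that were not called. In H358 1 rose and 3 fell, against 3.78% and 4.62% of all genes, among them HDAC5 (-0.42, SE 0.09, adjusted p = 0.00701, but 0.0501 without H358_shNC replicate 1 and 0.0647 without H358_shRAD21 replicate 2). With overexpression 3 of 17 rose and 3 fell, against 14.1% and 13.7%, among them MPP3, which rose (0.62, SE 0.10), and NBR2, which fell (-0.69, SE 0.16).

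Within 500000 bases of ETV5 lay 20 genes, of which 9 were tested. LIPH, 493695 bases away, fell in A549 knockdown (-0.71, SE 0.10, adjusted p = 4.37e-05) and TRA2B, 108172 bases away, was called higher (0.22, SE 0.06, adjusted p = 0.0146), a call lost in 6 alternatives, with 0.04 when GC content and exon length were corrected. These were 1 lower and 1 higher of 9, against 10.9% and 14.4% of all genes. In H358 0 of the 9 were called (0 higher and 1 lower at an unadjusted p under 0.05, 0 and 1 by DESeq2), against 3.78% higher and 4.62% lower of all genes. With overexpression NMRAL2P (0.54, SE 0.10) and DGKG, whose exons overlap those of ETV5 (0.49, SE 0.11), rose, while ETV5 did not pass. These were 2 higher of 9, with 0 lower by edgeR (1 at an unadjusted p under 0.05, 0 by DESeq2). Over all genes 14.1% were called higher and 13.7% lower. DGKG was at 20.19 ± 2.76 CPM in A549_shNC and 24.17 ± 3.29 in A549_shRAD21 (0.26, SE 0.16, adjusted p = 0.258). The 7 genes within the same distance of ETV1 were too low to be tested in either batch. Without A549_shRAD21 replicate 3 the neighbours of ETV4 called lower in A549 went from 1 to 5 and those called higher from 0 to 2. All genes called in that setting went from 2059 to 3893 lower and from 2721 to 4537 higher.

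**Figure D5:**
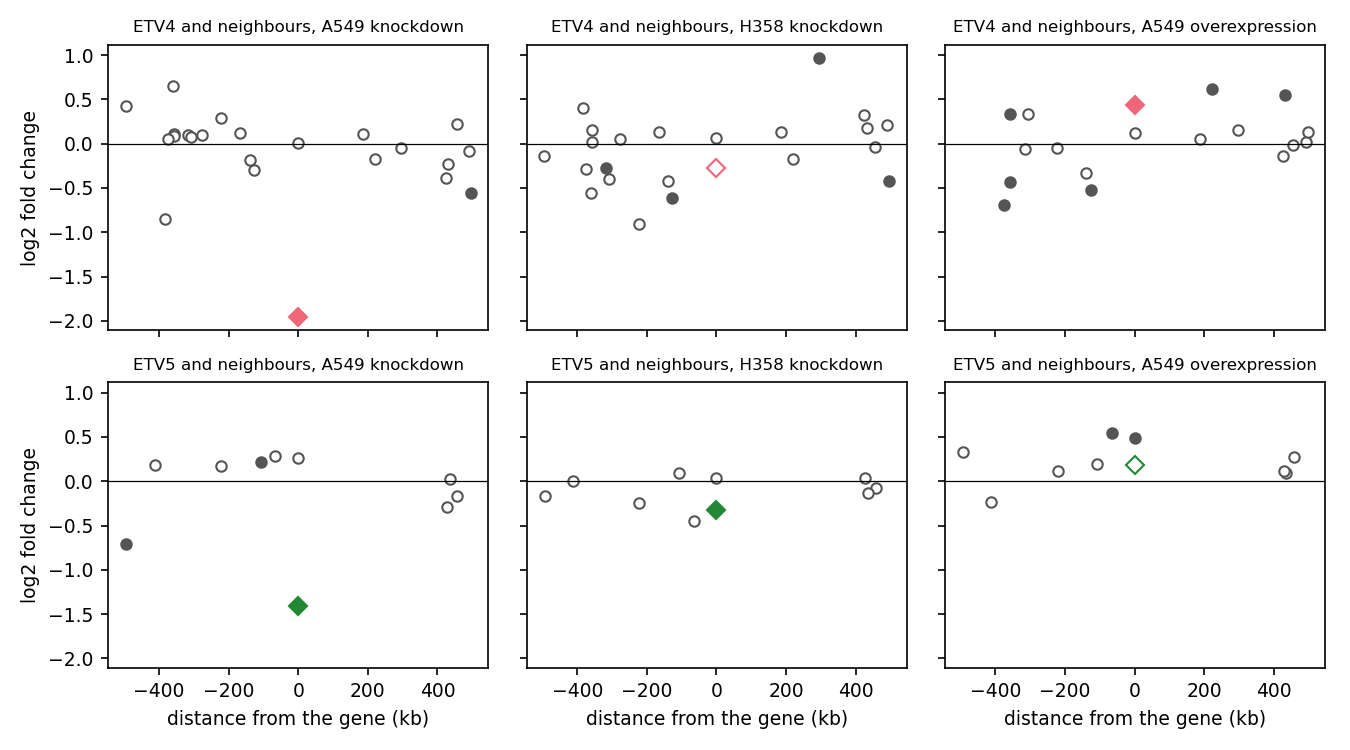
Log2 fold change (vertical axis) of the tested genes within 500 kb of ETV4 (top) and ETV5 (bottom) against their distance (horizontal axis, kb, negative towards lower coordinates). Diamonds are ETV4 and ETV5, and filled symbols passed an adjusted p of 0.05. In A549 knockdown the diamonds, at -1.96 and -1.41, lie below all of their neighbours.

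Likeness to each gene was measured as Pearson r of log2 CPM minus the mean of the control group of the comparison, over 18 libraries and 10722 genes, and describes these libraries only. ETV4 and ETV5 had r = 0.978 with each other (Spearman rho 0.806). The A549_shRAD21 libraries lay farthest from their controls for both, at -2.20 to -1.77 for ETV4 and -1.47 to -1.36 for ETV5. Their part in r was not tested. ETV1 had r = -0.75 with ETV4 and -0.692 with ETV5 (rho -0.273 and -0.311). The genes most like ETV4 were ITGB5 (r = 0.986), which encodes an integrin subunit, RAP1GAP2 (0.982), MAFF (0.982) and HAS3 (0.979), which encodes a hyaluronan synthase. Those most like ETV5 were MICAL2 (0.996), ITGB5 (0.984), ETV4 and CACNG7 (0.977), and those most like ETV1 were SESTD1 (0.95), RAB3GAP2 (0.946), SLC4A4 (0.942) and PDCD6IP (0.939). With Spearman rho in place of r, 0 of the 4 genes for ETV1 and 1 of 4 for each of ETV4 and ETV5 stayed among the 4 most alike. HAS3 went from 113.2 ± 8.21 to 26.17 ± 2.97 CPM in A549 knockdown and from 48.30 ± 3.32 to 83.03 ± 5.42 CPM with overexpression, and MICAL2 from 169.7 ± 7.92 to 56.63 ± 3.31 CPM in A549 knockdown.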

How the data were processed

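RNA extracted with TRIzol was sequenced from VAHTS Universal V6 libraries, per the labels' protocols; no source used here states the strandedness. The authors deposited raw counts of reads per gene in 2 tables, 1 per batch. HISAT2 2.0.5, featureCounts 1.5.0-p3, fastp and hg38 are named by the submitters' processing notes, without role or order. All 58735 genes had GENCODE release 29 coordinates, 0 count columns were without a sample and 0 pairs of libraries were identical.

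Each batch was fitted separately (R 4.3.3, edgeR 4.0.16: filterByExpr, TMM, a mean for every group, two-sided quasi-likelihood F-test). P-values were adjusted by Benjamini-Hochberg over all genes tested (knockdown 18939, overexpression 15462). A gene was called, or said to rise or fall, below 0.05. Biological coefficients of variation were 0.0864 and 0.0981. SE is the absolute log2 fold change over the square root of F. Ratios of counts used a prior count of 0.5. The fits were also run on simulated counts without a GC trend or a deviating replicate, so that run does not cover these features of the data. The tables were normalized separately, so no test crosses them. Figures used matplotlib 3.10.9 in Python 3.11.15.

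The members, the gene lists and the tests were chosen with earlier results of these data known. Genes named are the 3 members; RAD21; CIC, ATXN1, ATXN1L, COP1 and DET1; called members of the 5 lists (up to 3 per direction and comparison, by adjusted p); called neighbours (up to 2); and the 4 protein-coding genes most like each member, with a mean of at least 4 CPM. DUSP4 and DHX8 were picked with their values in view. Some genes that this rule would name are not reported here. The alternatives tried were the size factors and Wald test of DESeq2 1.42.0, limma-voom (limma 3.58.1), library totals alone, other filters, a block for the replicate number, offsets for GC content and exon length, a fit of 1 line alone, every library left out in turn, and windows of 250000 and 1000000 bases.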

Additional observations from a re-analysis of the deposited data

Results flagged for a closer look

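The effect of RAD21 knockdown differed between the lines, by a test of the difference (effect in H358 minus effect in A549, log2 scale, adjusted p under 0.05), for all 3 ETV genes: -0.67 for ETV1, 1.69 for ETV4 and 1.08 for ETV5. The extent of the knockdown of RAD21 also differed, by 0.57, and its part in these differences was not tested.

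Among the other genes that the naming rule gave for the knockdowns, the test gave these differences. Of the ETS factors it was -1.46 for ETS2, -2.07 for EHF, -1.68 for SPDEF, 0.74 for ETS1, 0.72 for ELK3, 0.69 for ERF and -0.58 for ELF3. Of the regulators it was -0.55 for ATXN1, whose effect did not pass edgeR's test in either line but passed in 3 of 15 alternatives in A549 and 1 of 15 in H358. Of the ERK output genes it was 0.88 for PHLDA1, 0.60 for IER3, 0.83 for DUSP6, -1.22 for EPHA4 and -0.30 for DUSP5, the one of these 5 that was lowered more in H358. For DUSP4, an ERK output gene picked outside the rule, the same test gave 0.39 (SE 0.09, adjusted p = 0.00808). Of the reported targets the difference was -3.09 for SPP1, which rose in A549 and fell in H358, -0.74 for VIM and -0.33 for ERBB2. It was 2.30 for MMP2 (SE 0.59) and 1.48 for TERT (SE 0.25), which fell in A549 and rose in H358. Both were low in H358. MMP2 was at means of 0.351 CPM in H358_shNC and 0.458 in H358_shRAD21, and TERT at 1.49 and 2.91. Of the FGF genes the difference was 0.52 for FGFR3, -0.52 for FGFRL1, 0.92 for FGFR1 and -1.45 for FGFBP1 (SE 0.34). FGFBP1 was low in A549, at means of 0.60 CPM in A549_shNC and 1.18 in A549_shRAD21. Of the neighbours the difference was 1.02 for MPP2, near ETV4, and 0.54 for LIPH, near ETV5.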

How the results depend on the processing

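The falls of ETV4 and ETV5 in A549 knockdown, their differences between the lines and the 3 differences between control lines were called in all alternatives run. With GC content and exon length corrected, ETV1 was 0.28 in A549 knockdown (adjusted p = 0.0706), -0.35 for the difference between the lines (0.0693) and 0.04 with overexpression, and ETV4 in H358 was -0.35 (0.000293). ETV1 in A549 was 0.47 with limma-voom (0.0616) and 0.45 in the fit of the A549 libraries alone (0.107). ETV4 in H358 was -0.27 with DESeq2's Wald test (0.0415) and in the fit of H358 alone (0.00157). With 1 library left out, ETV1 ranged from 0.37 to 0.65 in A549 knockdown, from -0.22 to -0.02 with overexpression and from -0.84 to -0.56 between the lines, ETV4 from 0.35 to 0.51 with overexpression and from -0.32 to -0.23 in H358, and ETV5 from -0.40 to -0.29 in H358.

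With the replicate block, ETV1 in A549 was 0.49 (adjusted p = 0.0359) and ETV4 in H358 -0.27 (0.117), and no call of the 3 genes changed. Deviations of same-numbered libraries from their group means were only weakly correlated (-0.0369 to 0.0674). The own number was the best match for H358 replicates 1 and 3 and overexpression replicates 2 and 3, and not for the rest. With 3 libraries per group this cannot decide whether the numbers pair the libraries. Of 62 called results of other named genes, 43 were kept in every alternative, 19 were lost in at least 1 and 0 were reversed. Among the regulators, uncalled results that were called in at least 1 alternative were those of ATXN1 in all 3 comparisons, ATXN1L in A549 knockdown and overexpression, and CIC in A549 knockdown. Uncalled values near 0 that changed sign were COP1 in H358 (0.00 to 0.03 over 7 settings, such as 0.01 with limma-voom and 0.03 with library totals alone, and -0.07 to 0.06 with a library left out), CIC (0.11 in A549 with GC content corrected, and in H358 0.00 with library totals alone and -0.07 to 0.01 with a library left out), ATXN1L in H358 (-0.01 to 0.04 with a library left out) and DET1 with a library left out (-0.32 to 0.14 in H358, -0.81 to 0.06 with overexpression).

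Counts of all genes called moved by over 1.5 times as follows, and the cause was not tested. In A549 knockdown 1649 were higher in the fit of the line alone (2721 before), and 4537 higher and 3893 lower (2059 before) without A549_shRAD21 replicate 3. In H358 1742 were higher and 1676 lower with GC content corrected (716 and 875 before), 2186 and 2287 in the fit of the line alone, and 347 to 386 and 408 to 496 with 1 library left out. With overexpression 1112 to 1336 were higher and 1065 to 1369 lower without an A549_EV library (2177 and 2120 before). Between the lines 932 were higher without A549_shNC replicate 1 (1442 before), 1246 lower without H358_shNC replicate 3 (1883 before), and 3507 and 3841 without A549_shRAD21 replicate 3. Between control lines 4583 and 4597 were called at 10 CPM or more in 3 libraries (7414 and 6978 before), a filter that leaves fewer genes to be tested.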
